A study of Rattus norvegicus with 6 samples.

Results

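The miR-532, miR-500 and miR-362 cluster is a group of miRNA genes inside Clcn5, the gene of an endosomal chloride and proton exchanger, on the X chromosome. Its members were taken as every row of the deposited tables that is an arm of rno-miR-188, rno-miR-362, rno-miR-500, rno-miR-501, rno-miR-532 or rno-miR-660. This gave 7 rows of 1071, from 5 of the 6 precursors. They are rno-miR-532-5p, rno-miR-532-3p, rno-miR-188-5p, rno-miR-362-5p, rno-miR-362-3p, rno-miR-501-3p and rno-miR-500-3p, written below without the species prefix. The remaining arms, those of miR-660 among them, were not analysed here.

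Small RNA was sequenced from fibroblasts of the rat sciatic nerve, wild type and untreated, in 2 groups of 3 libraries. The EV group came from RNA of the extracellular vesicles (called exosomes in the labels) that the fibroblasts release, and the Intracellular group, the controls, from RNA inside the cells. All libraries carry the same batch label, and the labels do not say whether replicates were separate cultures or animals, nor give an age. The p-values therefore measure only the spread between these libraries, which may be technical.

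A miRNA gene is transcribed as part of a longer RNA, here a sense-strand stretch of Clcn5, and cut to a hairpin and then to a short duplex. One strand of the duplex, the 5p or the 3p arm, is kept by an Argonaute protein, and its seed near the 5′ end picks the target mRNAs by base pairing. Clustered miRNAs can come from a common transcript, yet the mature arms can differ widely in level because processing, strand choice and decay act on each of them. Vesicles carry a part of the miRNAs of the cell that releases them, and that part need not match the makeup of the cell.

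The mature sequences, as deposited, are shown because seed and arm decide which rows can be told apart. They are written 5′ to 3′ with T for U, and capitals mark the seed (bases 2 to 8).

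miR-532-5p: cATGCCTTgagtgtaggactgt
miR-188-5p: cATCCCTTgcatggtggaggg
miR-362-5p: aATCCTTGgaacctaggtgtgaat
miR-532-3p: cCTCCCACacccaaggcttgca
miR-362-3p: aACACACCtgttcaaggattca
miR-501-3p: aATGCACCcgggcaaggatttgg
miR-500-3p: aATGCACCtgggcaagggttca

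miR-501-3p and miR-500-3p had the same seed, ATGCACC, and no other pair of arms did. Counted from 1 at the 5′ end and read from miR-500-3p to miR-501-3p, they differed by T9C, G18A, C21T and A22G, so that 18 of 22 compared bases were the same. How reads that could come from either were divided is not stated, and single values of this pair are uncertain for that reason. The next most similar pair was miR-362-3p and miR-500-3p, with 17 of 22 bases the same. All 4 of the 3p arms held the letters CAAGG, against 1.81% of the 552 known miRNAs of the table, members included, and all 3 of the 5p arms held CCTTG, against 2.90%. These strings were searched on the miRNA strand after the sequences had been read, so the shares are a description. The strings are reverse complements of each other. In the hairpins of mir-532, mir-362 and mir-500 they lie on opposite arms, which pair. The hairpin of mir-501 has no CCUUG on its 5p side, and that of mir-188 has no CAAGG on its 3p side. GGAG was in miR-188-5p alone, against 7.97% of known miRNAs.

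In the RefSeq annotation of GRCr8, a later build than the Rnor_6.0 named in the submitters' processing notes, the 5 hairpins lie on the plus strand of chromosome X within the bounds of Clcn5, which is on the same strand. Their order along the strand is mir-532, mir-188, mir-362, mir-501 and mir-500, with Mir3560 between mir-362 and mir-501. The hairpins of the most abundant precursor and of the near-identical pair are shown from RefSeq (GRCr8, plus strand, RNA letters), with the counted arms in capitals.

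mir-532: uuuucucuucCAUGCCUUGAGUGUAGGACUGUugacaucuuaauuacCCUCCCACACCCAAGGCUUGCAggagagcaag
mir-501: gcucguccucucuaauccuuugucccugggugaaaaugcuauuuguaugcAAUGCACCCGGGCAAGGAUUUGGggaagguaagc
mir-500: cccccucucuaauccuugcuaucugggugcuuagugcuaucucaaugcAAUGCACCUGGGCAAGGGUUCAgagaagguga

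Both arms of mir-532 had rows, while mir-501 and mir-500 were each counted through the 3p arm. Of the 7 deposited sequences, 6 equalled the RefSeq mature sequence, and miR-362-5p, which has no mature entry in that table, lay within its hairpin.

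The EV libraries held 81211 to 105578 counts and the Intracellular libraries 1839047 to 8859302, so 1 count stood for 9.47 to 12.3 CPM in EV and for 0.113 to 0.544 CPM in Intracellular libraries, where CPM sets the sum of a library to 1000000. Most arms of the cluster therefore rest on few EV counts. Libraries were scaled by TMM (trimmed mean of M values, which sets libraries to a common level through the bulk of the miRNAs). The scaling factors were 1.35, 1.26 and 1.17 in EV replicates 1, 2 and 3, and those of the Intracellular libraries were all lower. Among the latter, Intracellular replicate 1 stood apart, at 0.557 against 0.963 and 0.935 in Intracellular replicates 2 and 3. The 6 fibroblast and mesenchymal markers took 41.5% to 42.4% of EV counts and 46.5% to 49.0% of Intracellular counts, with none of them at 0. The liver marker miR-122-5p took 1.12% to 1.37% of EV and 0.0118% to 0.0345% of Intracellular counts. Both erythroid markers together took 0.0152% to 0.0222% of EV and 0.000203% to 0.000598% of Intracellular counts. The 3 muscle markers summed to 49.3 to 151.5 CPM in EV, against 9.06 to 12.6 CPM in Intracellular libraries. The summed ranges of the 4 leukocyte markers (18.9 to 32.5 CPM in EV, against 11.4 to 37.1 CPM in Intracellular libraries) overlapped. Those of the glial markers, the endothelial miR-126a-3p and miR-9a-5p, the only neuronal marker with a row, overlapped as well. With TMM, however, miR-9a-5p was called lower in EV (log2 fold change -0.89, edgeR adjusted p = 0.00430). The EV sums of the muscle, leukocyte and glial markers rest on few counts, and an overlap at that depth does not show that the groups are alike. Within these lists the leukocyte miR-223-3p and miR-142-5p and the glial miR-219a-5p had 0 EV counts. A 0 allows up to 28.4 to 36.9 CPM (3 counts) in an EV library, so it does not show absence. miR-223-3p, for instance, averaged only 0.541 CPM in Intracellular libraries. The part of RNA from other sources in the results was not tested.

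miR-501-3p was higher in the vesicles than in the cells, and no other arm of the cluster passed the test in either direction. It averaged 132.2 ± 8.84 CPM in EV, against 19.6 ± 1.35 CPM in Intracellular libraries (SD, n = 3 each). Its log2 fold change was 2.13 (SE 0.38, edgeR adjusted p = 0.000182). miR-532-5p, the most abundant arm in both groups, averaged 653.1 ± 61.9 CPM in EV, against 556.3 ± 8.57 CPM in Intracellular libraries, and its fold change had opposite signs under TMM and total-count scaling. Of the 7 arms, 6 passed the filter on low counts. 1 of these 6 was called higher, against 25.6% of the 328 miRNAs tested, and 0 were called lower, against 17.1%. At an unadjusted p under 0.05 no further arm passed. With DESeq2 1 arm was called higher and 0 lower, beside 82 higher and 51 lower of all 328 miRNAs tested. With total-count scaling 1 was again called higher, against 32.6% of all miRNAs tested, and 0 lower, against 0.915%. The share of the cluster called higher is thus near the background.

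**Figure D1:**
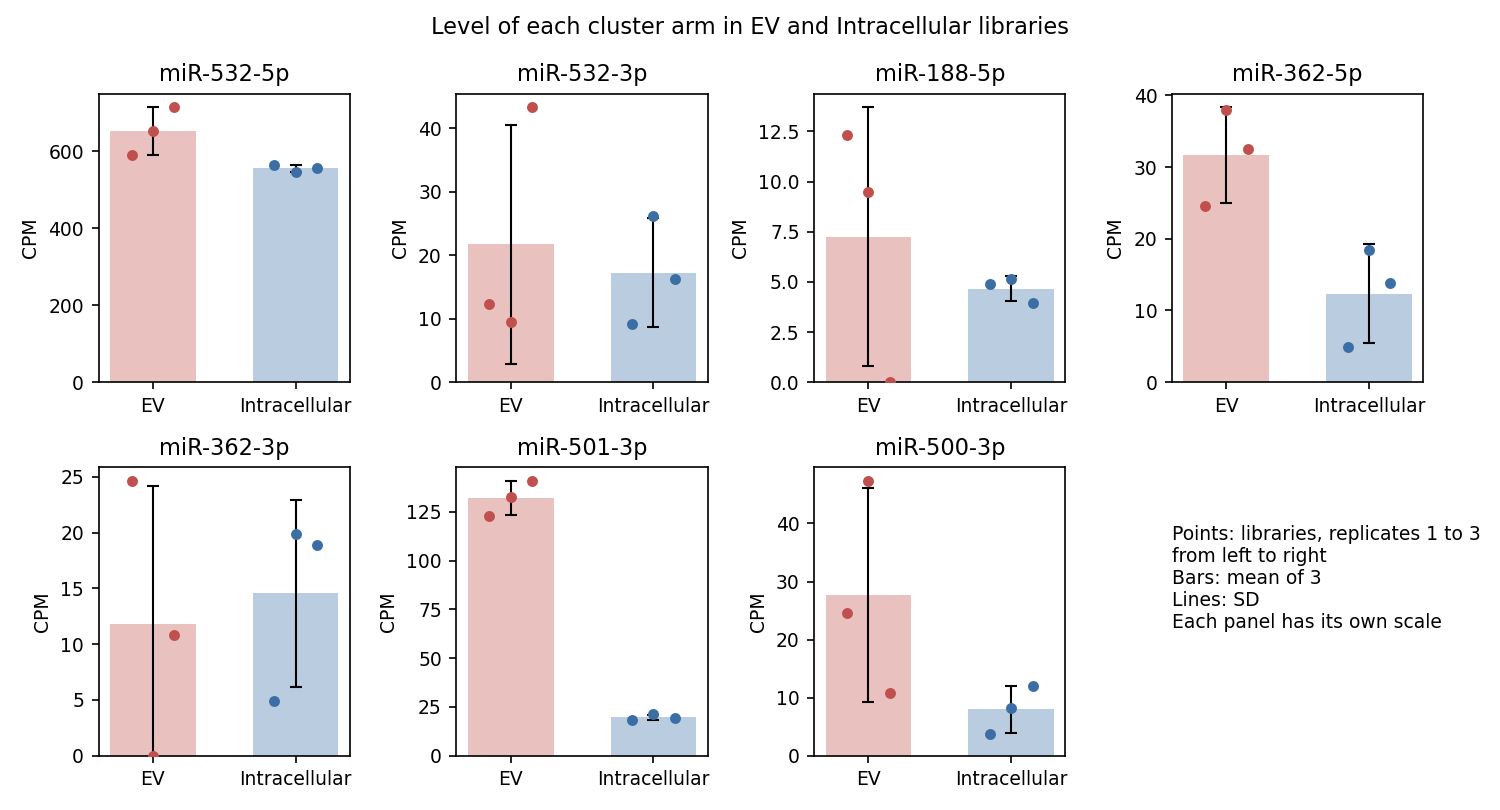
CPM of each arm (vertical axis, own scale per panel) in the 3 EV and the 3 Intracellular libraries, with points for libraries, bars for means and lines for the SD. The EV points of miR-501-3p lie between 123.1 and 140.8 CPM, above Intracellular points of 18.5 to 21.1 CPM, while the groups of miR-532-3p, miR-188-5p, miR-362-3p and miR-500-3p overlap.

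miR-501-3p, which in rat hippocampal neurons is known to repress the AMPA receptor subunit GluA1, had 10, 14 and 13 counts in EV replicates 1, 2 and 3, against 34, 70 and 171 counts in Intracellular replicates 1, 2 and 3. In CPM these were 123.1, 132.6 and 140.8 in EV, against 18.5, 21.1 and 19.3 in Intracellular libraries. The groups did not overlap, and the lowest EV library was far above the highest Intracellular one. At the pooled Intracellular rate the EV libraries would have held 5.48 counts in all, where 37 were found, a pooled ratio of 6.75 (95% exact interval 4.66 to 9.54, counting error only). The SD of 8.84 CPM between EV libraries was smaller than the 37.8 CPM that counting alone gives a library of this depth, so the replicate spread understates the error of this arm. The 95% interval of its log2 fold change in edgeR was 1.33 to 2.92.

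The rise of miR-501-3p was called under every alternative run, with log2 fold changes of 1.87 to 2.75 and adjusted p of 4.04e-07 to 0.00496. By mean CPM it was number 162 of the known miRNAs in EV and number 227 in Intracellular libraries. By log2 fold change it was number 49 from the top of the 328 miRNAs tested and number 26 of the known ones, so larger changes were common in these data. Its GC content was 56.5%, against a median of 45.8% over the 290 known miRNAs tested. The other cluster arms ran from 40.9% (miR-362-3p) to 63.6% (miR-532-3p), so this value did not set it apart from them.

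miR-500-3p, the near-identical neighbour of miR-501-3p, had 2, 5 and 1 counts in EV replicates 1, 2 and 3, against 140 counts in the 3 Intracellular libraries together. This gave 24.6, 47.4 and 10.8 CPM in EV, against 3.81, 8.15 and 11.96 CPM in Intracellular libraries. EV replicate 3 lay below Intracellular replicate 3, so the groups overlapped. The log2 fold change was 1.17 (SE 0.67, 95% interval -0.25 to 2.58, edgeR adjusted p = 0.178), and the interval holds both no change and the value of miR-501-3p. With total-count scaling it was 1.76 (edgeR adjusted p = 0.0742), and without EV replicate 2 it was 0.43 with TMM.

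The ratio of miR-501-3p to miR-500-3p needs no scaling between libraries. On the log2 scale, with 1 added to each count, it was 1.87, 1.32 and 2.81 in EV replicates 1, 2 and 3, against 2.13, 1.34 and 0.685 in Intracellular replicates 1, 2 and 3. The groups overlapped, and the difference of 0.62 was smaller than the SD within either group, 0.75 in EV and 0.72 in Intracellular libraries (exact permutation p = 0.5, 2-sided). A 3 against 3 design allows no p below 0.1. With a library left out the difference ran from 0.21 to 0.99 (0.21 without EV replicate 3, 0.27 without Intracellular replicate 3, 0.96 without EV replicate 2 and 0.99 without Intracellular replicate 1). When both rows were summed, a choice made after the data were seen, the log2 fold change was 1.91 (SE 0.32, edgeR adjusted p = 9.77e-05). The summed EV counts were mostly those of miR-501-3p, with 37 counts beside 8 of miR-500-3p. The call for the pair together therefore says little about miR-500-3p, and the division of reads between the rows was not tested.

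miR-532-5p, which targets RUNX3 in human melanoma cells, had 48, 69 and 66 counts in EV replicates 1, 2 and 3, against 1039, 1815 and 4927 in Intracellular replicates 1, 2 and 3. These were 591.1, 653.5 and 714.8 CPM in EV, against 565.0, 547.8 and 556.1 CPM in Intracellular libraries. In CPM every EV library was above every Intracellular one, with a gap that was small beside the spread within EV. No overlap in this direction was found for 3 of the 6 tested arms, miR-532-5p, miR-362-5p and miR-501-3p, against 41.8% of all miRNAs tested, and in the lower direction for 0 of 6, against 3.66%.

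With TMM scaling the log2 fold change of miR-532-5p was -0.47 (SE 0.25, 95% interval -0.98 to 0.05, edgeR adjusted p = 0.140), and with total counts it was 0.24 (SE 0.32, edgeR adjusted p = 0.674). The median of all tested miRNAs was -0.06 with TMM and 0.55 with total counts, a shift of 0.61. miR-532-5p thus lay below that median under both scalings, and its sign against 0 was set by the scaling. With upper-quartile scaling it was called lower (-0.72, edgeR adjusted p = 0.00821), as it was with no filter (-0.61, edgeR adjusted p = 0.0354). Without Intracellular replicate 1 the log2 fold change was -0.11 (edgeR adjusted p = 0.704).

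**Figure D2:**
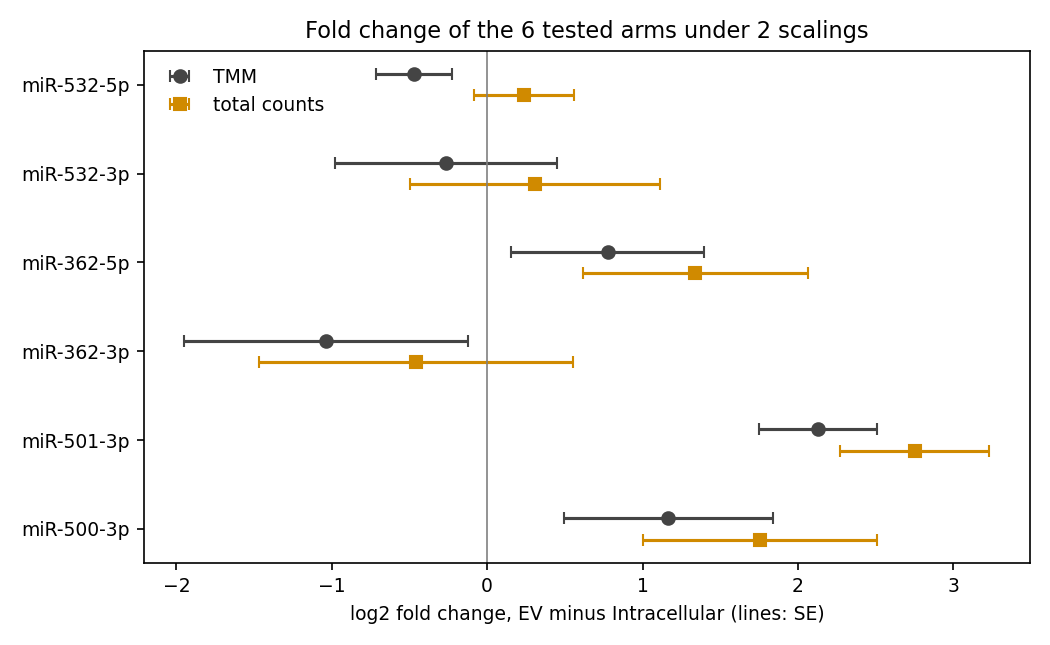
Log2 fold change of the 6 tested arms, EV minus Intracellular (horizontal axis), with lines for the SE, under TMM and total-count scaling in edgeR. miR-501-3p lies at 2.13 and 2.75, and miR-532-5p on either side of 0, at -0.47 and 0.24.

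miR-532-3p, the minor arm of the same hairpin, had 1, 1 and 4 counts in EV replicates 1, 2 and 3, against 17, 87 and 144 in Intracellular replicates 1, 2 and 3. In CPM this was 12.3, 9.47 and 43.3 in EV, against 9.24, 26.3 and 16.3 in Intracellular libraries. The groups overlapped, with EV replicate 3 the highest of all libraries. Its log2 fold change was -0.26 with TMM (SE 0.72, 95% interval -1.76 to 1.24, edgeR adjusted p = 0.787) and 0.31 with total counts. With TMM it was 0.02 without EV replicate 1, 0.15 without EV replicate 2 and 0.02 without Intracellular replicate 2, so its sign changed with the scaling and with single libraries.

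The 3p arm held 2.04% (95% exact interval 0.0517 to 10.9), 1.43% (0.0362 to 7.70) and 5.71% (1.58 to 14.0) of the counts of both miR-532 arms in EV replicates 1, 2 and 3. In Intracellular replicates 1, 2 and 3 it held 1.61% (0.941 to 2.57), 4.57% (3.68 to 5.61) and 2.84% (2.40 to 3.33). The 5p arm thus led in every library. The log2 ratio of the 3p to the 5p arm averaged -4.50 ± 0.70 in EV, against -5.10 ± 0.74 in Intracellular libraries (SD, n = 3 each), and the difference of 0.61 was smaller than either SD (exact permutation p = 0.5, 2-sided). It rests on 6 EV counts of the 3p arm, was 0.12 with a prior count of 0.25 and ran from 0.23 to 0.97 with a library left out (0.23 without EV replicate 3 and without Intracellular replicate 1, 0.92 without EV replicate 2 and 0.97 without Intracellular replicate 2). A change in arm use smaller than the wide EV intervals was not detectable at this depth.

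miR-188-5p, which in rat hippocampal neurons is known to repress neuropilin-2, was the least abundant arm. It had 1, 1 and 0 counts in EV replicates 1, 2 and 3, against 9, 17 and 35 in Intracellular replicates 1, 2 and 3. It did not pass the filter and was not tested. The 0 of EV replicate 3 allows a level of up to 32.5 CPM (3 counts), above the 3.95 to 5.13 CPM of the Intracellular libraries. The pooled ratio of EV to Intracellular was 1.65, with a 95% exact interval of 0.195 to 6.21 for counting error only.

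miR-362-5p, which targets CYLD in human cancer cells, had 2, 4 and 3 counts in EV replicates 1, 2 and 3, against 9, 61 and 122 in Intracellular replicates 1, 2 and 3. In CPM these were 24.6, 37.9 and 32.5 in EV, against 4.89, 18.4 and 13.8 in Intracellular libraries. The groups did not overlap, but the arm did not pass the test (log2 fold change 0.78, SE 0.62, 95% interval -0.52 to 2.08, edgeR adjusted p = 0.328). The value rests on 9 EV counts, where 3.82 were expected at the pooled Intracellular rate.

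miR-362-3p, the other arm of that hairpin, had 2, 0 and 1 counts in EV replicates 1, 2 and 3, against 9, 66 and 167 in Intracellular replicates 1, 2 and 3. In CPM these were 24.6, 0 and 10.8 in EV, against 4.89, 19.9 and 18.9 in Intracellular libraries, and the groups overlapped. The 0 of EV replicate 2 allows up to 28.4 CPM (3 counts). The log2 fold change was -1.04 (SE 0.91, 95% interval -2.95 to 0.88, edgeR adjusted p = 0.381), and it was -2.08 without EV replicate 1 and -0.38 without EV replicate 2. The values of both miR-362 arms in Intracellular replicate 1 were the lowest of that group, at 4.89 CPM each, and those of miR-532-3p, miR-500-3p and, by a small margin, miR-501-3p were likewise lowest there.

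**Figure D3:**
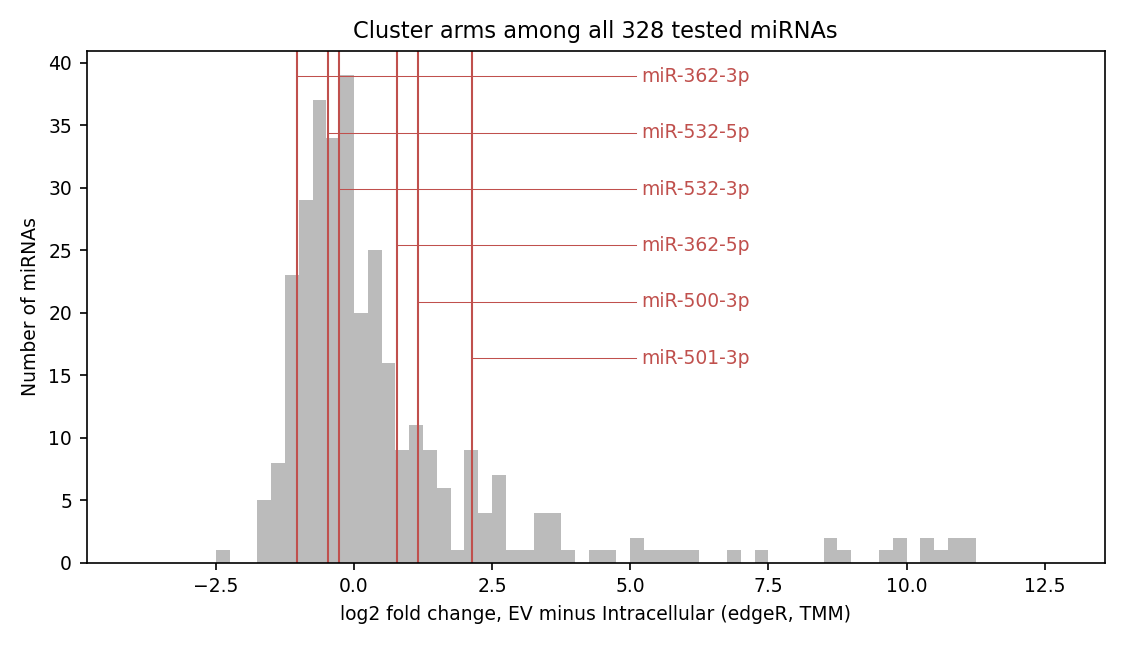
Number of miRNAs (vertical axis) by log2 fold change, EV minus Intracellular (horizontal axis), for all 328 miRNAs tested with edgeR and TMM, with the 6 tested cluster arms as lines. The arms spread from -1.04 for miR-362-3p to 2.13 for miR-501-3p, and 3 of the 6 lie above 0, or 5 with total counts.

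No test of a difference between arms across the cluster was made. With TMM 3 of the 6 tested arms had a log2 fold change above 0 and with total counts 5 did. The median of the 6 was 0.26 with TMM, beside -0.06 over all 328 miRNAs tested, and 0.82 with total counts, beside 0.55. The 95% intervals of the 5 uncalled arms overlapped one another, and that of miR-501-3p lay above 0.

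The cluster took 0.0813%, 0.0890% and 0.0953% of counts in EV replicates 1, 2 and 3, against 0.0611%, 0.0647% and 0.0640% in Intracellular replicates 1, 2 and 3. The means were 0.0885% ± 0.00703 in EV, against 0.0633% ± 0.00190 in Intracellular libraries (SD, n = 3 each). Every EV library was above every Intracellular one. With the 10 most abundant miRNAs taken out of the totals, however, the means were 0.253% in EV, against 0.2495% in Intracellular libraries. The higher share of the cluster thus depends on what it is measured against.

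The makeup of the cluster depends on no scaling between libraries. miR-501-3p held 15.2%, 14.9% and 14.8% of cluster counts in EV replicates 1, 2 and 3, against 3.02%, 3.27% and 3.01% in Intracellular replicates 1, 2 and 3. The 95% exact intervals ran from 7.51% to 26.1% over the EV libraries and from 2.10% to 4.20% over the Intracellular ones, and did not overlap between groups. miR-532-5p held 72.7%, 73.4% and 75.0% in EV replicates 1, 2 and 3, against 92.4%, 84.7% and 86.9% in Intracellular replicates 1, 2 and 3. The libraries of the groups stood apart, but the exact interval of EV replicate 3, which reaches 83.6%, overlapped that of Intracellular replicate 2, which starts at 83.1%. The other 5 arms held at most 5.32% each in any library. The shares are parts of the same total, so a larger share of miR-501-3p lowers that of miR-532-5p, and the differences are not separate results. In mean CPM miR-532-5p was not lower in EV (653.1, against 556.3 in Intracellular libraries).

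**Figure D4:**
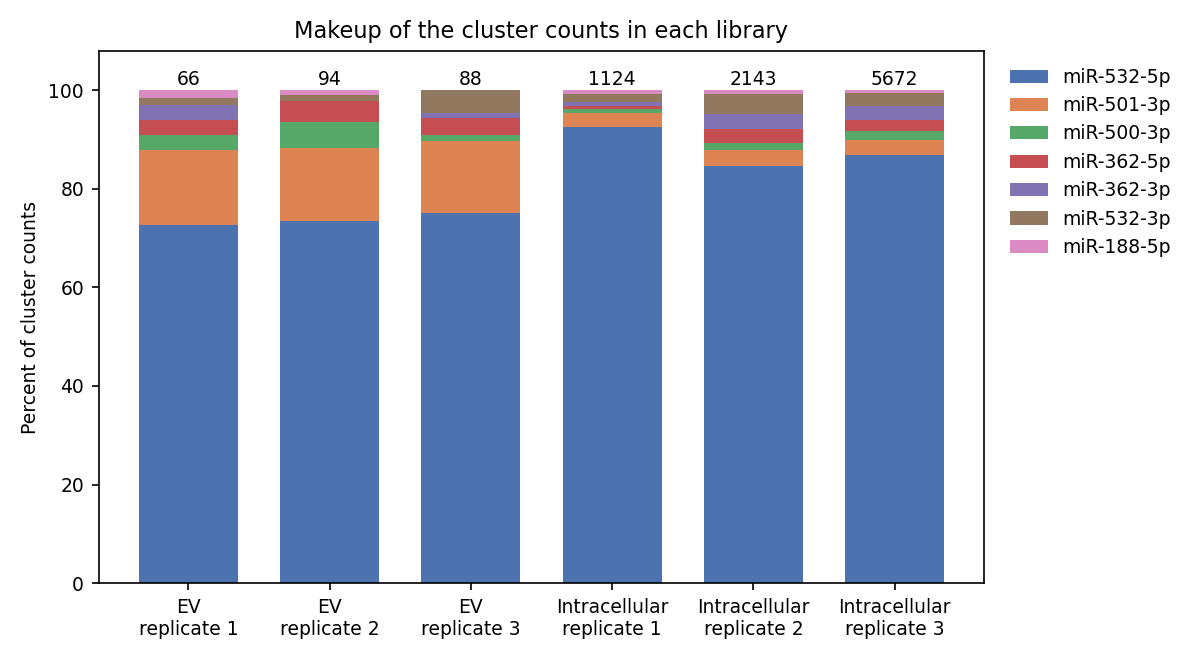
Percent of the cluster counts held by each arm (vertical axis) in each library, with the number of cluster counts above the bar. miR-501-3p fills 14.8% to 15.2% of the EV bars, which rest on 66 to 94 counts, and 3.01% to 3.27% of the Intracellular bars, which rest on 1124 to 5672 counts.

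The log2 ratio of miR-501-3p to miR-532-5p, a pair chosen after its values were seen, was -2.16, -2.22 and -2.26 in EV replicates 1, 2 and 3, against -4.89, -4.68 and -4.84 in Intracellular replicates 1, 2 and 3. The groups did not overlap and differed by 2.59, so that the ratio was 6.03 times as high in EV as in Intracellular libraries. As with the level of miR-501-3p, 10 to 14 EV counts per library make the spread between EV libraries too small a measure of the error, and the difference is given as a description. Levels of different arms within a library also carry the sequence preferences of adapter ligation and PCR, which a comparison of the same arm between groups shares.

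The known miRNAs whose profile over the 6 libraries was most like that of miR-532-5p were miR-323-3p, miR-148b-3p, let-7c-5p, miR-100-5p and miR-370-3p. Likeness was the root mean square difference of log2 CPM after each profile was centred on its own mean, and it was 0.126 to 0.169. No other arm of the cluster could be among them, since members were left out of the search. Their log2 fold changes with TMM were -0.39, -0.76, -0.54, -0.59 and -0.49 in that order. Values near that of miR-532-5p follow from the choice by profile over these same libraries, so they are a description. By mean CPM, without TMM, all but miR-148b-3p were higher in EV than in Intracellular libraries, as was miR-532-5p.

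Other X-linked miRNAs were taken from a list of 26 precursor names, of which 21 have an entry under that symbol in the RefSeq table, all on chromosome X. They gave 43 rows, of which 23 were tested. With TMM 1 was called higher and 8 lower, beside 25.6% and 17.1% of all miRNAs tested, with a median log2 fold change of -0.55 beside -0.06. With total counts 2 were called higher and 0 lower, beside 32.6% and 0.915%. The 4 most abundant were called lower with TMM: miR-221-3p (-0.51, edgeR adjusted p = 0.0406), miR-450a-5p (-0.82, edgeR adjusted p = 0.00257), miR-351-5p (-0.50, edgeR adjusted p = 0.0333) and miR-98-5p, of the let-7 family (-1.04, edgeR adjusted p = 0.00340). With total counts their values were 0.15, -0.22, 0.10 and -0.31, and none was called. The higher call was miR-503-5p (1.52, edgeR adjusted p = 0.000209), which belongs to another X-linked cluster.

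Outside the cluster, 2 known miRNAs of the table had the seed of a member. miR-329-3p has the seed of miR-362-3p, ACACACC, and averaged 241.5 ± 58.2 CPM in EV, against 211.7 ± 13.03 CPM in Intracellular libraries (SD, n = 3 each; log2 fold change -0.54, edgeR adjusted p = 0.160). It was thus more abundant than miR-362-3p in both groups. miR-511-5p has the seed of miR-532-5p, ATGCCTT, and had 0 EV counts. It averaged only 0.0753 CPM in Intracellular libraries and was not tested. A single EV count stands for 9.47 to 12.3 CPM, so the EV 0 cannot show a difference. No known miRNA outside the cluster had the seed of miR-501-3p and miR-500-3p.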

How the data were processed

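Libraries were made by ligating adapters to both RNA ends, followed by reverse transcription, PCR and size selection, per the labels' protocols. Molecular identifiers are not named there, so exact intervals and floors cover counting error only, while the intervals of log2 fold changes come from edgeR and include the spread between libraries. The submitters' processing notes name cutadapt and the build Rnor_6.0. Aligner, miRNA database and counter: not given in the sources used here. Values of the deposited count table are whole numbers, 1 row per mature miRNA, with 552 known and 519 predicted rows. The deposited TPM table equals these counts scaled to 1000000 per library, with a largest difference of 4.78e-05 and no length term.

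Counts were tested with edgeR 4.0.16 (R 4.3.3) by its quasi-likelihood test, 2-sided, with TMM, filterByExpr (minimum count 10, minimum total 15), robust dispersions and no replicate block. P-values were adjusted by Benjamini and Hochberg over all 328 rows tested, and a call is an adjusted p under 0.05. SE were taken from the F statistic. Ratios were compared by 2-sided exact permutation tests (scipy 1.17.1) with a prior count of 1. Alternatives were other scalings and filters, DESeq2 1.42.0, limma 3.58.1 (voom, and log2(TPM + 1) and log2(TPM + 0.1)), a replicate block and each library left out with the tested rows kept. The members and lists were chosen with earlier results of these data known. Every member is named. The other named miRNAs are the 5 most like miR-532-5p, the 4 most abundant other X-linked ones and those sharing a seed. miR-503-5p, the ratio to miR-532-5p and the miRNAs most like miR-501-3p were chosen after values were seen.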

Additional observations from a re-analysis of the deposited data

How the results depend on the processing

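miR-501-3p was the 1 cluster arm called higher under all 18 alternatives. Cluster arms called lower numbered 0, except 1 (miR-532-5p) with upper-quartile scaling and 1 (the same arm) with no filter. miR-532-5p turned to 0.24 with total counts, 0.23 with log2(TPM + 1) and 0.23 with log2(TPM + 0.1). miR-532-3p turned to 0.31, 0.12 and 0.12 in the same order, and ranged from -1.32 to 0.15 with a library left out. The signs of miR-501-3p, miR-500-3p, miR-362-5p and miR-362-3p held wherever they were tested. At 10 counts in every library of a group, miR-500-3p and both miR-362 arms were not tested. Over all miRNAs, 84 were higher and 56 lower. Higher calls numbered 197 with no filter and 62 to 91 with a library left out. Lower calls numbered 3 with total counts, 92 with upper-quartile scaling, 37 with known miRNAs alone, 2 with log2(TPM + 1), 2 with log2(TPM + 0.1) and 18 to 58 with a library left out (18 without EV replicate 1, 26 without EV replicate 2 and 36 without Intracellular replicate 3). The cause was not tested. The cluster share came to 0.253% in EV and 0.2495% in Intracellular libraries without the 10 most abundant miRNAs in the total.

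Same-numbered libraries correlated by -0.03, 0.07 and 0.21 in their deviations from the group means, and the other pairings by -0.29 to 0.19. With 3 libraries per group and few EV counts for most miRNAs, these values cannot decide whether same-numbered libraries are paired. With the replicate block 1 arm was called higher and 0 lower, and over all miRNAs 87 and 46. miR-501-3p was at 2.12 there. The ratio differences kept their values of 0.61, 0.62 and 2.59, with an exact sign-flip p of 0.5 and 1 for the first 2, where 3 pairs allow no p below 0.25. With a library left out they were 0.23 to 0.97 for miR-532-3p to miR-532-5p, 0.21 to 0.99 for miR-501-3p to miR-500-3p and 2.55 to 2.65 for miR-501-3p to miR-532-5p, and with a prior count of 0.25 they were 0.12, 0.91 and 2.54. Depth limits every arm: miR-532-5p has 183 EV counts, miR-501-3p 37 and the others 2 to 9.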

Other observations

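Among known miRNAs outside the cluster, those with the profile most like that of miR-501-3p over the 6 libraries were miR-148a-3p, miR-320-3p, miR-182, miR-665 and miR-708-3p. This search was added after the values were seen. Fold changes near that of miR-501-3p, and their small p-values, follow from the choice by profile over these same libraries, so they are a description. The root mean square difference of the centred log2 CPM was 0.084 for miR-148a-3p and 0.204 to 0.327 for the other 4. miR-148a-3p averaged 1520 ± 119 CPM in EV, against 233.1 ± 6.91 CPM in Intracellular libraries (SD, n = 3 each; log2 fold change 2.02, edgeR adjusted p = 6.82e-07). miR-320-3p, which is made without the usual first cut by Drosha, averaged 1563 ± 145 CPM in EV, against 192.8 ± 42.0 CPM in Intracellular libraries (2.39, edgeR adjusted p = 1.69e-08). miR-182, of the sensory cluster, averaged 264.5 ± 41.8 CPM in EV, against 36.0 ± 5.78 CPM in Intracellular libraries (2.24, edgeR adjusted p = 1.83e-06). miR-665 and miR-708-3p rest on 8 and 11 EV counts.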
